A study of Homo sapiens with 95 samples.

Results

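The response of HcRed control cells to cigarette smoke condensate (CSC) was measured in 6 of the 95 samples of the series. They were 3 CSC-treated and 3 DMSO-treated samples of AALE, an immortalized human bronchial epithelial cell line. The HcRed cells carried an empty vector with the red fluorescent reporter HcRed and no gene of interest, and were the control for the lines made by overexpression. CSC was added at 24 μg/ml, and the controls received the solvent DMSO alone, after the cells had grown to confluency in 24-well plates. How long the exposure lasted, and whether a line was 1 clone, is not given in the sources used here. RNA was profiled by sparse full length (SFL) sequencing, a ribosomal RNA depletion-based method. A gene entered when its mean count over the 6 samples was above 1, which left 14410 of the 27978 listed genes. For comparison, HcRed cells had also received benzo[a]pyrene (BaP, 173 μM) or the tobacco nitrosamine NNK (490 μM), 3 samples each, and 7 other AALE lines had received CSC or DMSO. Those lines were the GFP control for the CRISPR lines (a Cas9 and EGFP plasmid without a guide), knockouts of FAT1 and CDKN2A, and lines overexpressing NRF2, FGFR1, NRG1 or PIK3CA.

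CSC is the particulate fraction of smoke taken up in a solvent, and it holds polycyclic aromatic hydrocarbons, of which BaP is the best known. Such compounds bind the aryl hydrocarbon receptor (AhR), which moves to the nucleus, pairs with ARNT and switches on cytochrome P450 genes and its own repressor AHRR. Quinones and other electrophiles modify KEAP1, so that the transcription factor NRF2 escapes degradation and switches on genes of glutathione, thioredoxin and NADPH supply. NNK is activated in cells to DNA-alkylating species and is not an aromatic hydrocarbon.

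The 6 libraries held between 694898 and 1440757 counts, and the BaP and NNK libraries of HcRed cells between 432015 and 1494564. Levels are given in CPM, a count scaled to the size of its library (with the trimmed mean of M values), and differences as log2 differences with their standard error (SE). Differences were tested with limma-voom, with p-values adjusted over all genes tested and a gene called at an adjusted p under 0.05. The study calls the replicates biological, but whether they came from separate cultures is not given in the sources used here, so the p-values measure the spread between these samples, part of which may be technical. The 8 markers of airway basal epithelium summed to between 8017 and 8748 CPM with CSC and between 8265 and 8661 CPM with DMSO. Members moved both ways within that sum. KRT5 (-0.26), KRT14 (-0.62), ITGA6 (-0.30) and EPCAM (-0.32) were called lower with CSC, and KRT17 (0.47) and ITGB4 (0.48) higher. TP63 and CDH1 were not called. These differences are without the GC correction described below. Both secretory markers and 2 of 3 alveolar markers had no read in the 6 samples. The 7 fibroblast markers summed to between 35.2 and 37.3 CPM with CSC against 10.8 to 27.4 CPM with DMSO, and the 5 immune markers to between 23.1 and 32.3 CPM against 8.64 to 15.5 CPM. Nearly all of the fibroblast sum was COL1A1, at 31.2 to 34.8 CPM against 9.84 to 25.9 CPM, and nearly all of the immune sum was CD68, at 22.1 to 29.8 CPM against 5.76 to 13.8 CPM, while PTPRC and CD3E had no read. In bulk samples, fewer cells of a type and less RNA per cell cannot be told apart.

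The differences moved with the base composition of the transcripts. In CSC against DMSO, the median log2 difference rose in steps from -0.51 for the 222 genes of at most 35% GC to 0.60 for the 2054 genes above 60% GC. Of the genes above 60% GC, 38.2% were called higher with CSC. The log2 ratio of reads on genes above 60% GC to reads on genes under 40% GC was -0.50, -0.76 and -0.82 in CSC replicates 1 to 3 and -1.64, -1.51 and -1.85 in DMSO replicates 1 to 3. It was -1.13, -1.32 and -0.80 with BaP and -0.64, -0.73 and -0.71 with NNK, so that the DMSO libraries stood apart from all 9 treated ones. In GFP cells the ratio was -2.11, -1.87 and -1.95 with DMSO, also below that of every treated library of the line. Each gene group below is therefore given also after a trend of each sample with GC content and with exon length had been removed (GC-corrected). Across all genes the median difference was 0.02 uncorrected and -0.00 corrected. Whether the GC pattern came from the cells or from library preparation was not tested.

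**Figure D1:**
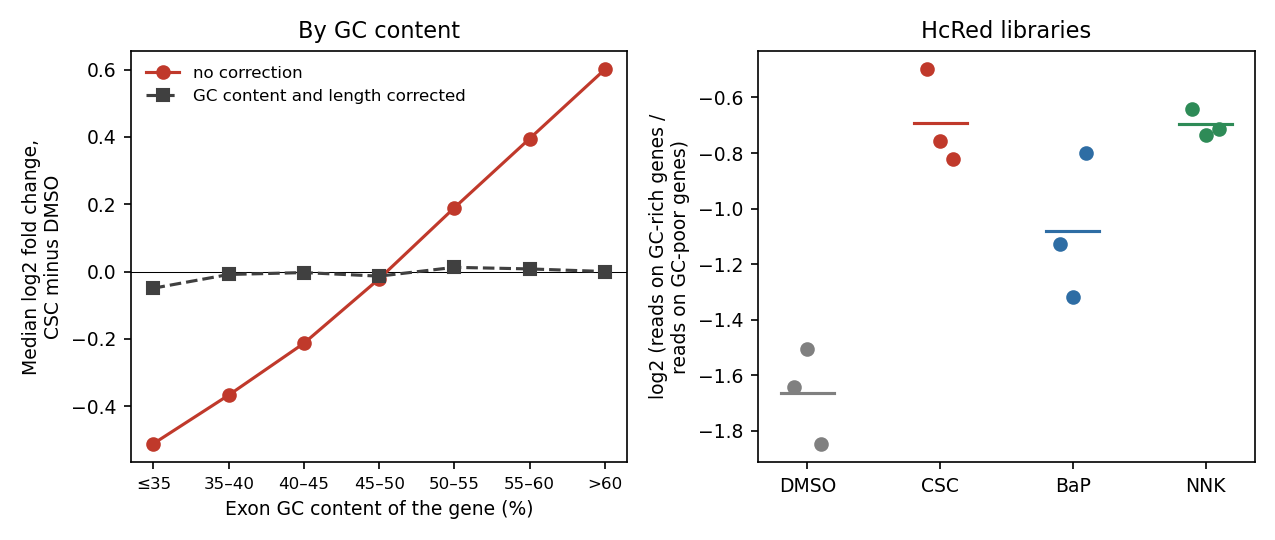
Base composition and the CSC difference. Left, the median log2 difference by exon GC content of the gene (percent), without and with correction, and right, per sample of HcRed cells, the log2 ratio of reads on GC-rich genes (above 60% GC) to reads on GC-poor genes (under 40% GC), with lines at the group means. The 3 DMSO samples lie between -1.85 and -1.51, below all 9 treated samples.

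For 5 genes of the groups that follow, chosen because the element searched for their group is present, 250 bases upstream of the start are printed with that element in capitals. The windows of NQO1, FOS and CENPF held no match to the element of their group. The sequences are from RefSeq (GRCh38.p14), 5′ to 3′ on the gene's strand. The capitals mark the AhR core GCGTG in CYP1A1 at chr15:74725529-74725778 on the minus strand, and the antioxidant response element TGACNNNGC in TXNRD1 at chr12:104215529-104215778 on the plus strand and, as its reverse complement, in GCLM at chr1:93909431-93909680 on the minus strand. They mark a pair of CArG boxes in EGR1 at chr5:138465229-138465478 and a pair of interferon-stimulated response elements in IFIT1 at chr10:89392373-89392622, both on the plus strand.
CYP1A1: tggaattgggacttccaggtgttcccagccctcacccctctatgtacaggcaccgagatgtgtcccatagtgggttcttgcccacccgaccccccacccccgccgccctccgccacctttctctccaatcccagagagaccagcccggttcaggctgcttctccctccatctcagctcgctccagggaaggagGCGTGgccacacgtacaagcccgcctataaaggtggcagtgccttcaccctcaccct
TXNRD1: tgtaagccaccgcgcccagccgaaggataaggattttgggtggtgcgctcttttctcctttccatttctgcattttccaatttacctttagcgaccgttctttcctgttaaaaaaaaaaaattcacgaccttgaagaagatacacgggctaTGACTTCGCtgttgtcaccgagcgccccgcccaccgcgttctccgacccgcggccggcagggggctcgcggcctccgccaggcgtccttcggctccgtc
GCLM: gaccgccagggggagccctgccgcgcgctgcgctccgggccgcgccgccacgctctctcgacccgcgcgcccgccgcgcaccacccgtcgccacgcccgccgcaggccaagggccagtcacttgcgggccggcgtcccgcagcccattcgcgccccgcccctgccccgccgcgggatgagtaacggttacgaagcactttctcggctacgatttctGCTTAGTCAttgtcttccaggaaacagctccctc
EGR1: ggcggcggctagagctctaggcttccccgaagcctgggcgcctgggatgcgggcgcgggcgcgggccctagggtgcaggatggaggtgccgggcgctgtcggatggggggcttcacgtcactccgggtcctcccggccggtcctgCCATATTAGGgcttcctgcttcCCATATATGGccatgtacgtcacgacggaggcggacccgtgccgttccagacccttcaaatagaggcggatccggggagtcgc
IFIT1: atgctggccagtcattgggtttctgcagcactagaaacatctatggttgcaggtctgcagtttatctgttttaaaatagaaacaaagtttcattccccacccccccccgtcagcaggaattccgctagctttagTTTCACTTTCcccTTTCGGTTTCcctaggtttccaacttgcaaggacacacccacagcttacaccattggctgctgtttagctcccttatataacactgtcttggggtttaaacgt

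Both strands were searched, and GCGTG overlaps the core of the hypoxia response element. A gene can have several windows, so each gene was counted once, with a match in any of its windows, in the lists and over all 27305 genes alike. The AhR core GCGTG lay upstream of 4 of 7 AhR target genes with a sequence (57.1%), against 36.2% of all genes. TGACNNNGC lay upstream of 10 of 31 NRF2 target genes (32.3%) against 13.2% of all, and the interferon-stimulated response element upstream of 21 of 33 interferon-stimulated genes (63.6%) against 3.71%. The CArG box lay upstream of 2 of 22 early genes (9.09%) against 1.44%, and TTTGAA, a core of the cell cycle element, upstream of 18 of 33 mitotic genes (54.5%) against 16.1%. The 7 AhR targets had 11 windows and all genes 35116, so chances of a match per gene still differed. A match describes the letters and not a bound site.

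CSC against DMSO asked which genes the smoke condensate changed in control cells. The xenobiotic-metabolizing enzymes CYP1A1, CYP1B1 and ALDH3A1, the antioxidant genes NQO1, FTL and FTH1, and the early growth-response genes EGR1 and FOS rose, while spindle genes such as CENPF and CENPE and the antiviral gene IFIT1 fell. Of 14410 genes, 3426 (23.8%) were called, 1823 higher (12.7%) and 1603 lower (11.1%). After GC correction 868 of 13892 genes (6.25%) were called, 418 higher (3.01%) and 450 lower (3.24%). The counts of each list below stand against these shares of all genes. Lists and their members were chosen with earlier results of these data known, so their counts are descriptive. DESeq2 called 1528 genes, and limma-voom called 2148 without DMSO replicate 3.

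The AhR targets held the largest rise. CYP1A1, which oxidizes polycyclic hydrocarbons and lies at chr15:75011883-75017877 (hg19, GENCODE), had 447, 365 and 223 CPM with CSC and 1.72, 0 and 0 CPM with DMSO. Every CSC sample lay far above every DMSO sample, in which only 2 reads were found against 1280 with CSC. The ratio of the reads per total was 507, with a 95% exact counting interval of 140 to 4194 that covers counting error only. The fitted difference of 8.48 ± 0.95 (SE, n = 3 per group, adjusted p = 1.5e-11) depends on how the zeros are smoothed.

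CYP1B1, a cytochrome P450 that activates hydrocarbons and oestrogens, had 968, 980 and 885 CPM with CSC and 109, 102 and 113 CPM with DMSO. The groups were tight and did not overlap, with a difference of 3.11 ± 0.10 (adjusted p = 2.7e-43). AHRR, the receptor's own repressor, was low, at 19.9, 16.2 and 15.1 CPM against 5.17, 1.44 and 0 CPM, and rose by 3.21 ± 0.66. TIPARP, the other feedback inhibitor on the list, rose from 121, 97.9 and 117 CPM with DMSO to 335, 309 and 352 CPM with CSC, a difference of 1.53 ± 0.11. ALDH3A1, which oxidizes aldehydes, had 86.1, 76.8 and 46.2 CPM against 17.2, 10.1 and 7.87 CPM, with CSC replicate 3 the lowest of its group as it was for CYP1A1. NQO1, a quinone reductase at chr16:69740899-69760571 that AhR and NRF2 both control, had 352, 365 and 334 CPM against 116, 128 and 126 CPM. Its difference was 1.51 ± 0.11 (adjusted p = 4.4e-21), and it stands on both lists.

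Of 9 AhR targets listed, 8 were tested and 6 rose, with a median of 2.03. The same count rose after GC correction, with a median of 1.915. The pair that did not pass was CYP2S1, a P450, at 1.17 ± 0.49 (adjusted p = 0.073), and UGT1A6, a glucuronidation enzyme whose exons overlap those of its relatives, at 0.73 ± 0.46 (adjusted p = 0.25). The gene of the receptor itself was not called, since AHR had 211, 192 and 192 CPM with CSC and 193, 168 and 231 CPM with DMSO, overlapping groups that differed by -0.01 ± 0.11. Its sign turned after GC correction (0.25, adjusted p = 0.13), and with a replicate block added to the correction it was called at 0.27 (adjusted p = 0.049). Of the 7 genes of the receptor complex, 1 rose and 3 fell, and 1 rose and 1 fell after GC correction. Among those that fell was HSP90AA1, the chaperone that holds the receptor in the cytoplasm, at -0.38 ± 0.05, a call that GC correction removed (-0.13, adjusted p = 0.063).

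**Figure D2:**
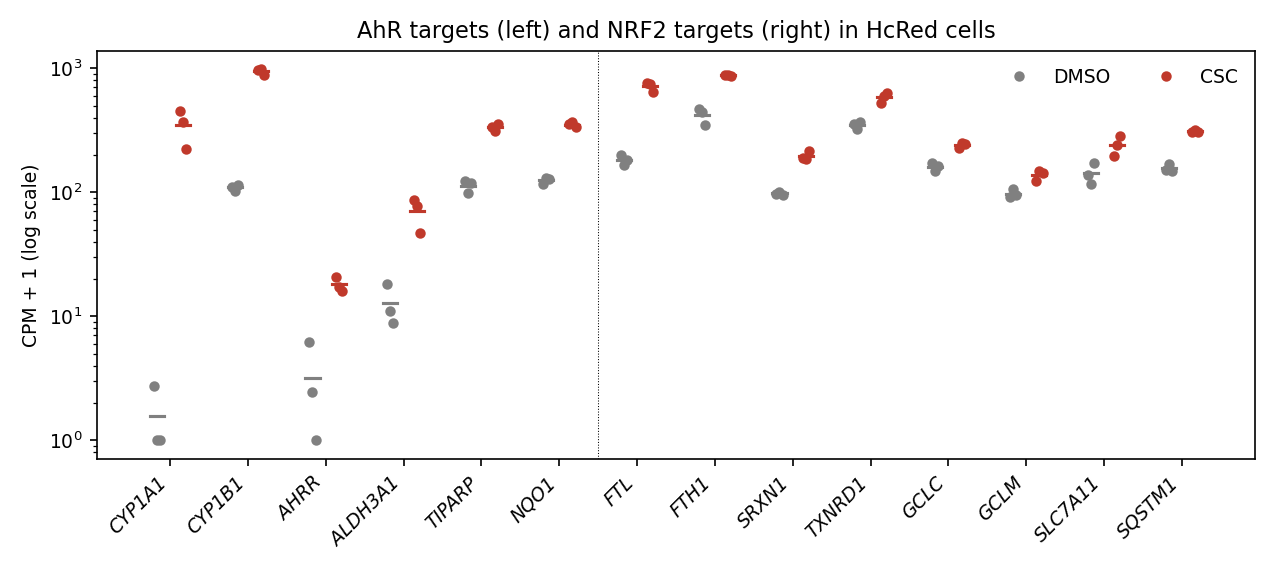
Levels of AhR and NRF2 target genes by sample. Points are CPM + 1 on a log scale in the 3 CSC and 3 DMSO samples of HcRed cells and short lines are group means. CYP1B1 lies between 885 and 980 CPM with CSC and between 102 and 113 CPM with DMSO.

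NRF2 target genes moved in a single direction among those that passed. Of 44 targets tested, 28 rose and none fell by limma-voom, with a median of 0.66. After GC correction 24 rose and none fell, with a median of 0.52. FTL and FTH1, the light and heavy chains of the iron store ferritin, were the leading pair. FTL had 758, 742 and 643 CPM with CSC and 199, 166 and 181 CPM with DMSO, a difference of 1.96 ± 0.09. FTH1 had 880, 878 and 861 CPM against 465, 439 and 349 CPM, a difference of 1.07 ± 0.08. Both pairs of groups were far apart. HMOX1, the heme oxygenase that often leads such responses, was near the floor in every sample, at 4.02 to 5.80 CPM with CSC and 0 to 2.58 CPM with DMSO, and was not called (1.64 ± 0.76, adjusted p = 0.11).

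All 4 thioredoxin genes on the list rose, with and without correction. TXNRD1, the reductase that keeps thioredoxin active and whose upstream sequence is printed above, had 528, 599 and 631 CPM against 357, 325 and 369 CPM, a difference of 0.72 ± 0.08 that was 0.88 after GC correction. SRXN1, which repairs oxidized peroxiredoxins, rose by 1.001 ± 0.12. Of 7 glutathione genes 5 rose, and 4 after correction. They included GCLC and GCLM, the catalytic and modifier subunits of the rate-limiting synthesis enzyme, at 0.56 ± 0.10 and 0.51 ± 0.13. GC correction raised the GCLM value to 0.88. SLC7A11, the cystine importer, had 196, 240 and 286 CPM against 137, 117 and 172 CPM, a difference of 0.72 ± 0.12 with no overlap, and 1.14 after correction.

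Of 6 NADPH-producing enzymes 4 rose in both fits. TKT, the transketolase of the pentose phosphate pathway, rose by 0.81 ± 0.08 (0.42 corrected). Of 9 conjugation and efflux genes 6 rose, and 4 after correction. ABCC3, an exporter of conjugates, rose by 1.35 ± 0.18. Of 8 reductases 3 rose in both fits. AKR1C1 was among them at 3.35 ± 0.75, with 15, 20 and 15 reads against 6, 0 and 0, but its near-identical relatives may share its reads and the value is uncertain. Of 5 regulators 4 rose, and 3 after correction. SQSTM1, an adaptor of selective autophagy, rose by 1.01 ± 0.10. Among the 8 genes of NRF2 and its partners 4 rose, 2 of them after correction, led by the small MAF protein MAFG at 1.34 ± 0.18. Of the same 8 genes only CUL3, the ubiquitin ligase scaffold of KEAP1, fell (-0.37 ± 0.10), and its corrected difference was -0.00. NFE2L2, the gene of NRF2 itself, was not called at -0.14 ± 0.10 (adjusted p = 0.33), with 205, 196 and 203 CPM against 235, 209 and 213 CPM.

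Early growth-response genes rose with their feedback inhibitors. Of 30 listed, 28 were tested, 23 rose and none fell by limma-voom, with a median of 1.36. After GC correction 19 rose, with a median of 0.90. EGR1, a zinc finger factor switched on within minutes of ERK signalling, had 403, 497 and 508 CPM with CSC and 68.0, 137 and 124 CPM with DMSO, a difference of 2.20 ± 0.13 (adjusted p = 1.2e-26). FOS, the AP-1 subunit, had 81.2, 79.6 and 78.4 CPM against 6.89, 18.7 and 20.7 CPM, a difference of 2.56 ± 0.27. In both genes DMSO replicate 1 was the lowest sample, and the groups did not overlap. The AP-1 genes FOSL1 and JUNB rose by 2.17 ± 0.29 and 1.29 ± 0.14, the latter 0.63 after correction, and MYC, a growth factor-responsive regulator of cell growth, by 1.44 ± 0.12.

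Of 14 phosphatases and inhibitors that damp this pathway, 12 rose and 10 did so after GC correction. DUSP6, which dephosphorylates ERK, had 53.8, 57.8 and 76.4 CPM against 16.4, 23.04 and 21.6 CPM, a difference of 1.60 ± 0.23. The related phosphatases DUSP1 and DUSP5 rose by 1.74 ± 0.12 and 1.998 ± 0.31. SPRY4, an inhibitor of receptor tyrosine kinase signalling, rose by 1.77 ± 0.37, and PHLDA1, an immediate early gene, by 1.48 ± 0.20. Of 10 EGF family ligands and receptors tested 6 rose, and 5 after correction. EREG, a ligand of EGFR, had 97.7, 116 and 132 CPM against 42.2, 44.6 and 45.3 CPM, a difference of 1.35 ± 0.16. AREG, another ligand, rose by 2.001 ± 0.56 with most of its reads in CSC replicate 1 (22.4, 9.16 and 9.05 CPM), and its adjusted p was 0.047 without that sample. EGFR itself had 872, 883 and 934 CPM against 621, 605 and 635 CPM, a smaller difference of 0.52 ± 0.07.

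**Figure D3:**
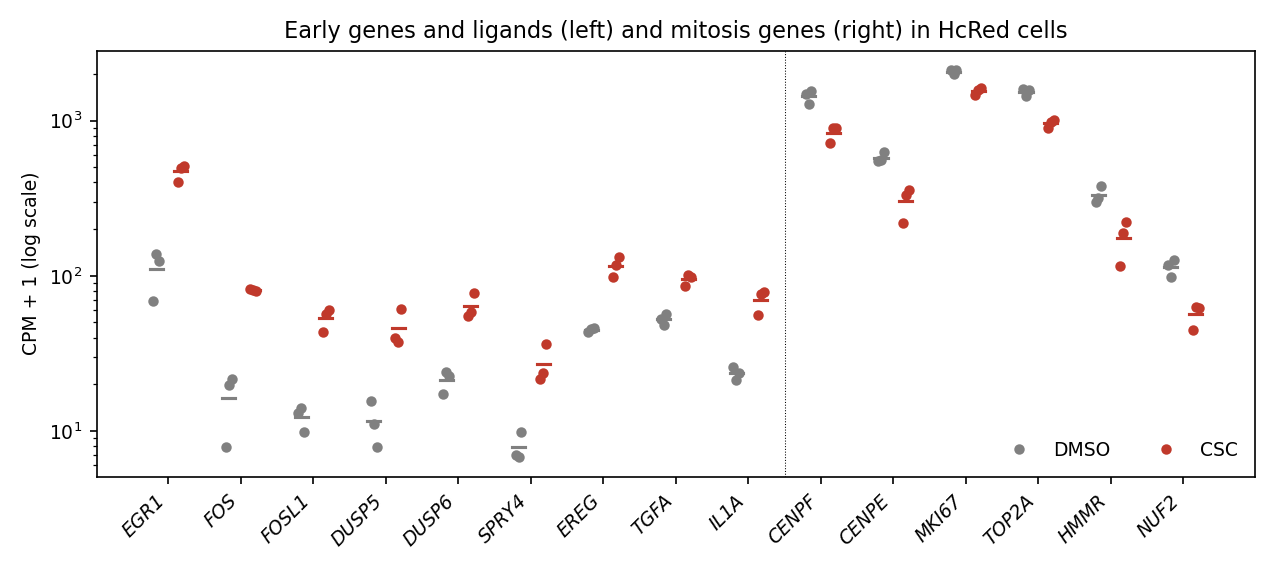
Levels of early growth-response and mitotic genes by sample. Points are CPM + 1 on a log scale in the 3 CSC and 3 DMSO samples of HcRed cells and short lines are group means. EGR1 lies between 403 and 508 CPM with CSC and between 68.0 and 137 CPM with DMSO, and CENPF lies lower with CSC.

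Genes of inflammatory mediators and of matrix proteases and their inhibitors were mostly low, but several rose. Of 19 inflammatory mediators tested 4 rose and 3 fell, and 2 rose and none fell after GC correction by limma-voom. IL1A, an alarmin of epithelial cells, had 54.7, 75.4 and 77.4 CPM against 25.0, 20.2 and 22.6 CPM, a difference of 1.54 ± 0.22, and IL1B rose by 2.18 ± 0.57 at lower levels. SOD2, the mitochondrial superoxide dismutase, fell by 0.38 on the log2 scale, a call lost without CSC replicate 2 (adjusted p = 0.13) and on GC correction (-0.17, adjusted p = 0.44). Of 12 matrix proteases and inhibitors tested 6 rose, and 4 after correction. Most were inhibitors, of which 4 of 6 rose, and 3 after correction. Of 6 proteases 2 rose, and 1 after correction. TIMP3, which blocks metalloproteinases, rose by 0.93 ± 0.14. MMP14, a membrane-bound metalloproteinase, rose by 0.38 ± 0.11 uncorrected. Its call was lost without DMSO replicate 1 (adjusted p = 0.077), and the corrected value turned to -0.04 (adjusted p = 0.88).

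Of 14 S100 calcium-binding protein genes tested 7 rose and 1 fell, and 5 rose and 1 fell after correction. S100A6 led, with 816, 824 and 722 CPM against 332, 429 and 391 CPM (1.06 ± 0.08), and S100A9, a subunit of calprotectin, rose by 0.89 ± 0.12. Of 6 metallothioneins tested 3 rose, and 2 after correction. The metal-binding MT2A had 1245, 1708 and 1964 CPM against 759, 754 and 707 CPM (1.11 ± 0.08). Of 25 targets of the amino acid stress factor ATF4, 8 rose and none fell by limma-voom, 6 rose after correction, and none of the 10 amino acid enzymes was called. SLC7A5, the large neutral amino acid transporter, had 3305, 3116 and 3267 CPM against 1462, 1551 and 1313 CPM (1.16 ± 0.05, corrected 0.63), and DDIT4, an inhibitor of mTORC1, rose by 0.99 ± 0.08.

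Of 28 glycolysis and hypoxia genes tested 14 rose and 1 fell, and 8 rose and none fell after correction by limma-voom. GAPDH rose by 0.65 ± 0.05 (0.34 corrected) with 2175, 2084 and 2003 CPM against 1268, 1333 and 1377 CPM. The glucose transporter SLC2A1 rose by 0.85 ± 0.11, and the angiogenic factor VEGFA by 1.36 ± 0.16. Of 25 p53 targets 8 rose and 1 fell uncorrected, where 12.7% of all genes rose and 11.1% fell. After correction 1 rose and none fell by limma-voom, a count of rises near the 3.01% of all genes. The one that held was CDKN1A, the cell cycle inhibitor p21, with 276, 260 and 258 CPM against 118, 112 and 113 CPM (1.19 ± 0.11, corrected 0.82). MDM2, the ubiquitin ligase of p53, overlapped between the groups and differed by -0.07 ± 0.10, a sign that GC correction turned (0.23).

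ABCA1 and ABCG1, the exporters of cholesterol that liver X receptors control, both rose. ABCA1 had 103, 97.9 and 122 CPM with CSC and 27.6, 23.04 and 19.7 CPM with DMSO, a difference of 2.14 ± 0.21. ABCG1 had 95.3, 56.4 and 56.3 CPM against 18.1, 17.3 and 18.7 CPM, a difference of 1.85 ± 0.25 in which CSC replicate 1 was the highest sample. SREBF1, the lipogenic factor under the same receptors, had 346, 331 and 282 CPM against 148, 148 and 139 CPM, a difference of 1.14 ± 0.10 (0.53 corrected). Of 8 fatty acid synthesis genes 3 rose and none fell by limma-voom, and 2 rose after correction. FASN, the fatty acid synthase, rose by 1.08 ± 0.06 (0.40 corrected), while SCD, the desaturase, was not called (-0.08 ± 0.04, adjusted p = 0.20). Of 24 cholesterol synthesis genes 6 rose and 8 fell, and 1 rose and 2 fell after correction, where 3.01% of all genes rose and 3.24% fell.

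Mitotic genes fell. Of 37 tested, 26 fell and 1 rose, with a median of -0.42. After GC correction 15 fell and none rose by limma-voom, with a median of -0.25. The list had a median GC content of 42.1%, under that of all genes tested (48.2%). CENPF, a kinetochore protein, had 716, 892 and 895 CPM with CSC and 1473, 1283 and 1558 CPM with DMSO, a difference of -0.81 ± 0.06 (corrected -0.57). MKI67, the proliferation marker Ki-67, had 1464, 1576 and 1632 CPM against 2106, 1987 and 2114 CPM, a difference of -0.43 ± 0.05 that correction moved to -0.48. In both genes CSC replicate 1 was the lowest sample and the groups did not overlap. The motor CENPE, the hyaluronan-mediated motility receptor HMMR, the kinetochore protein NUF2 and the topoisomerase TOP2A fell by 0.97, 0.98, 1.05 and 0.70 on the log2 scale. Of 20 spindle and cytokinesis genes 18 fell, 13 of them after correction. Of 17 kinases and control genes 8 fell and 1 rose, and 2 fell after correction.

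Of 44 replication and E2F genes 14 fell and 4 rose, and 6 fell and none rose after correction by limma-voom. TYMS, the thymidylate synthase, had 47.2, 39.5 and 37.2 CPM against 67.2, 73.4 and 79.7 CPM (-0.83 ± 0.17, corrected -0.87), and ORC6, a subunit of the origin recognition complex, fell by 0.80 on the log2 scale. MCM4, a subunit of the replicative helicase, was at -0.24 ± 0.07 and lost its call without CSC replicate 2 (adjusted p = 0.054) or DMSO replicate 2 (adjusted p = 0.055). The E2F1 gene rose by 0.86 ± 0.16 uncorrected and was not called after correction (0.33, adjusted p = 0.24).

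Among interferon-stimulated genes IFIT1 fell with and without GC correction. IFIT1, which binds viral RNA and lies at chr10:91152303-91166244, had 8.28, 1.41 and 6.03 CPM with CSC and 12.9, 15.8 and 21.6 CPM with DMSO. The groups did not overlap, CSC replicate 2 held only 2 reads, and the difference was -1.97 ± 0.45 (adjusted p = 0.00048, or 0.048 without CSC replicate 2). Of 34 genes tested 6 fell and 2 rose, where 11.1% of all genes fell. After GC correction IFIT1 was the single one that fell, where 3.24% of all genes fell, so that the count of the list was near that of all genes. The sensor DDX60 fell by 0.87 on the log2 scale and the effector IFIT2 by 1.05. The IFIT2 call was lost without CSC replicate 3 (adjusted p = 0.079) or DMSO replicate 3 (adjusted p = 0.10), and GC correction removed both. IRF7, a factor that drives interferon genes, rose by 1.67 ± 0.36 uncorrected (corrected 0.95, adjusted p = 0.093).

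Of 18 heat shock chaperones tested 10 fell and 2 rose, and 3 fell after correction. HSPA8, the constitutive member, differed by -0.25 ± 0.06 (corrected -0.16, adjusted p = 0.078). Of 10 desmosome genes 6 fell and 2 rose, and 3 fell after correction. DSP, which ties desmosomes to keratin filaments, had 2829, 2803 and 2488 CPM against 3894, 4014 and 3883 CPM (-0.54 ± 0.04, corrected -0.56), and the cadherin DSC3 fell by 0.60 on the log2 scale. Of 16 keratins tested 2 fell and 3 rose, and 5 fell and none rose after correction by limma-voom. The basal pair KRT5 and KRT14 fell, KRT5 with 3774, 3316 and 3330 CPM against 4225, 4105 and 4041 CPM (-0.26 ± 0.04, corrected -0.62) and KRT14 by 0.62 on the log2 scale (corrected -1.13). KRT17, a stress keratin, was at 0.47 ± 0.06 uncorrected and -0.07 corrected (adjusted p = 0.51). Of 436 ZNF zinc finger genes tested, a list with a median GC content of 43.1%, 60 fell and 21 rose, and 12 fell and 2 rose after correction. These counts of falls were near the shares of all genes, 11.1% and 3.24%. ZNF316 rose by 1.09 ± 0.15 (0.50 corrected) and ZNF106 was level at -0.06 ± 0.08 (0.04 corrected).

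**Figure D4:**
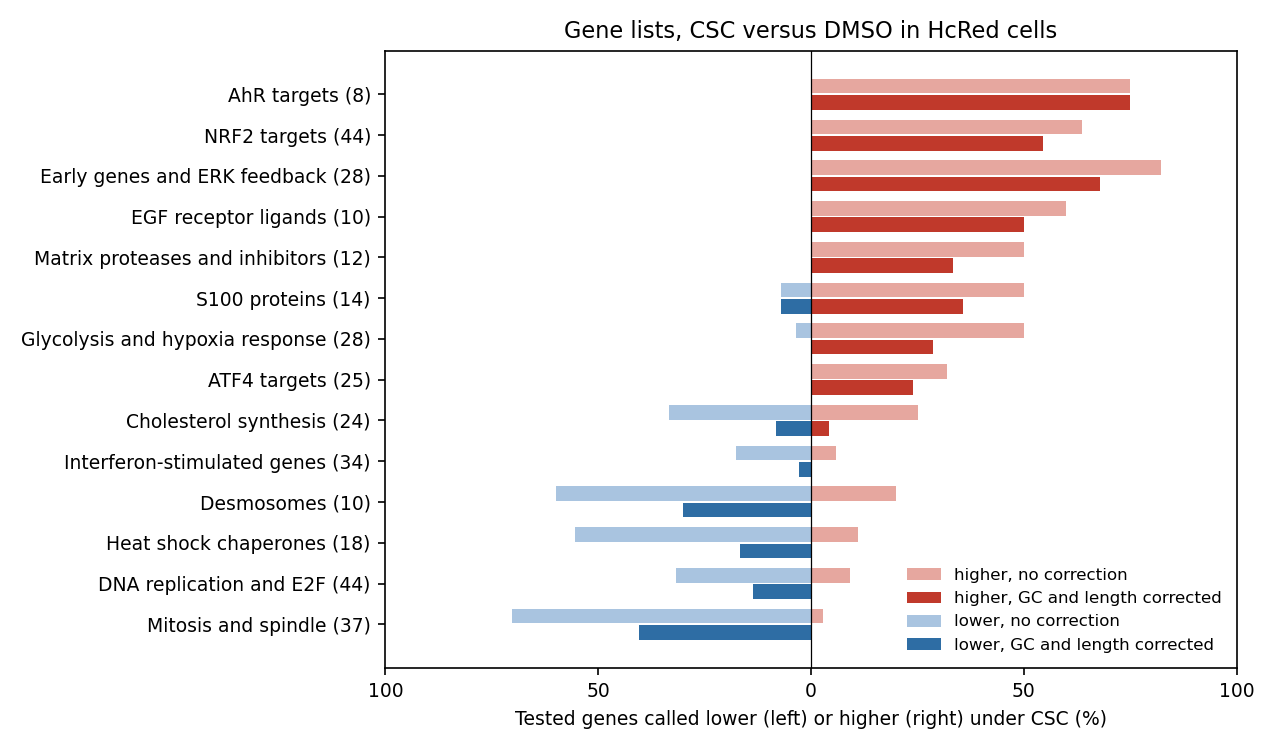
Share of each gene list called in CSC against DMSO. Bars give the percent of tested members called lower (left) or higher (right), pale without and dark with GC correction, and the number tested stands beside each name. AhR targets keep 6 of 8 called higher in both fits, and mitotic genes go from 26 to 15 called lower of 37.

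The largest rises and falls were ranked among called genes averaging 10 or more counts over the 6 samples, without overlap between the groups. The 15 largest rises were, after CYP1A1, ANGPTL4 at 3.74 ± 0.64, AHRR, CYP1B1, FOS, ALDH3A1, ADAM8 at 2.36 ± 0.32, VSTM2L at 2.35 ± 0.50, TMEM156 at 2.30 ± 0.57, EGR1, SERPINB2 at 2.18 ± 0.42, IL1B, FOSL1, SPHK1 at 2.15 ± 0.38 and ABCA1. All 15 kept their call after GC correction and without any single library. ANGPTL4, a secreted inhibitor of lipoprotein lipase, had 17.4, 29.6 and 28.2 CPM against 0.861, 1.44 and 1.97 CPM. ADAM8 is a membrane protease, SERPINB2 an inhibitor of plasminogen activation and SPHK1 a sphingosine kinase.

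The 15 largest falls held 6 genes of the ZNF series, a list with 436 of the 14410 genes tested. Over that whole list the counts of falls were near the shares of all genes, as given above. After IFIT1 the 15 largest falls were ZNF546 at -1.57 ± 0.40, CCDC112, KRBA2, ZNF181, LINC01355, LINC01468, PUS3, DZIP3, SLC8A1, SLC16A4, ZNF681, ZNF675, ZNF773 and ZNF138 at -1.18 ± 0.26. ZNF546, a KRAB zinc finger, had 4.97, 5.63 and 5.03 CPM against 15.5, 20.2 and 14.7 CPM. DZIP3, a ubiquitin ligase, had 19.1, 15.5 and 19.1 CPM against 38.8, 33.1 and 56.1 CPM, a difference of -1.26 ± 0.24. KRBA2 lost its call without CSC replicate 3 (adjusted p = 0.10). PUS3, a pseudouridine synthase, lost it without CSC replicate 1 (adjusted p = 0.10) or DMSO replicate 1 (adjusted p = 0.11). ZNF773 lost it without CSC replicate 1 (adjusted p = 0.055) or DMSO replicate 3 (adjusted p = 0.14). GC correction removed the calls of PUS3, SLC8A1, SLC16A4 and ZNF681. The nuclear noncoding RNAs moved apart, as NEAT1 rose by 0.71 ± 0.05 and MALAT1 differed by -0.71 ± 0.10, and both calls held after correction.

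Whether the CSC response of HcRed cells differed from that of GFP cells, the other control line, was tested as an interaction. Of 14518 genes 1 (0.00689%) was called, with 637 at an unadjusted p under 0.05. It was SLC7A11, whose response was higher in HcRed cells by 0.84 (95% interval 0.55 to 1.13, SE 0.14, adjusted p = 0.0019). GFP cells had 322, 322 and 296 CPM with CSC and 345, 368 and 310 CPM with DMSO, so that the HcRed samples were below all 6 GFP samples in both treatments. The call was lost without HcRed CSC replicate 3 (adjusted p = 0.066), HcRed DMSO replicate 1 (adjusted p = 0.076) or HcRed DMSO replicate 2 (adjusted p = 0.066). The CSC difference of SLC7A11 was 0.70 in HcRed cells and -0.11 in GFP cells, and ranged from -0.05 to 1.22 in the other lines, with the highest value in the NRF2 line. The difference in the NQO1 response was -0.12 (95% interval -0.40 to 0.15). For CYP1A1 the fitted difference between the lines was 2.52 (95% interval 0.41 to 4.62, adjusted p = 1), which rests on DMSO samples near 0 reads.

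Against the mean of the other 7 lines, 4 of 14497 genes (0.0276%) were called, with 1137 at an unadjusted p under 0.05. COL7A1, the collagen of anchoring fibrils, responded more by 0.44 (95% interval 0.27 to 0.61, adjusted p = 0.0056), FAT2, a giant cadherin, by 0.39 (0.25 to 0.53, adjusted p = 0.0024), and ITPR3, a calcium release channel, by 0.38 (0.23 to 0.52, adjusted p = 0.0087). AHNAK, a giant scaffold protein, fell less in HcRed cells than in the mean of those lines, by a difference of 0.14 (0.08 to 0.20, adjusted p = 0.038). In HcRed cells COL7A1 had 768, 712 and 754 CPM with CSC and 486, 540 and 424 CPM with DMSO, and FAT2 had 855, 831 and 725 CPM against 558, 671 and 574 CPM. ITPR3 had 813, 711 and 811 CPM against 464, 406 and 426 CPM, and AHNAK had 4881, 4640 and 5104 CPM against 5323, 5770 and 5882 CPM. The groups of each gene did not overlap. After GC correction none of the 4 differences in response was called, and DESeq2 called none. The CSC difference of COL7A1 within HcRed cells itself went from 0.63 to -0.04 after correction (adjusted p = 0.82). NQO1 differed from the other lines by 0.18 (95% interval -0.05 to 0.41), and its response ranged from 1.11 to 1.64 over the 8 lines.

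None of the 4 was called against the GFP line alone. The CSC difference of AHNAK was -0.23 in HcRed cells, -0.22 in GFP cells and -0.14 in the PIK3CA line, and ranged from -0.55 to -0.37 in the other 5 lines. That of ITPR3 was 0.81 in HcRed cells and 0.68 in GFP cells, and 0.17 to 0.51 in the other 6 lines. COL7A1 differed by 0.62 in HcRed cells and 0.50 in GFP cells, and by -0.13 to 0.36 in the others. FAT2 differed by 0.43 in HcRed cells and 0.26 in GFP cells, and by -0.35 to 0.27 in the others. The HcRed to GFP difference in response was 0.00 (95% interval -0.08 to 0.08) for AHNAK, 0.14 (-0.05 to 0.33) for ITPR3, 0.15 (-0.06 to 0.35) for COL7A1 and 0.18 (-0.01 to 0.37) for FAT2.

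Each of those 4 calls also depended on single libraries of HcRed cells. COL7A1 lost its call without CSC replicate 1 (adjusted p = 0.065), DMSO replicate 1 (adjusted p = 0.056) or DMSO replicate 3 (adjusted p = 0.55). FAT2 lost it without CSC replicate 1 (adjusted p = 0.065), DMSO replicate 1 (adjusted p = 0.11) or DMSO replicate 3 (adjusted p = 0.070). ITPR3 lost it without CSC replicate 1 (adjusted p = 0.16), CSC replicate 3 (adjusted p = 0.056), DMSO replicate 2 (adjusted p = 0.055) or DMSO replicate 3 (adjusted p = 0.30). AHNAK lost it without CSC replicate 1 (adjusted p = 0.23), CSC replicate 3 (adjusted p = 0.33) or DMSO replicate 1 (adjusted p = 0.47).

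CSC was then compared directly with BaP and with NNK in HcRed cells. The doses were not matched, since each compound was given at its own concentration. Against BaP, 396 of 14505 genes (2.73%) were called, 216 higher (1.49%) and 180 lower (1.24%) with CSC. After GC correction 165 of 13982 (1.18%) were called, 99 higher (0.708%) and 66 lower (0.472%). Under the filters given for the largest rises and falls, the largest difference was that of ABCA1, 4.28 ± 0.37 (SE) higher with CSC. It had 8.58, 2.70 and 6.19 CPM with BaP, under all CSC and DMSO samples. ABCG1 was 2.19 ± 0.27 higher than with BaP, ANGPTL4 2.42 ± 0.42 higher, SREBF1 1.15 ± 0.11 higher and FASN 0.89 ± 0.07 higher, and these calls held after GC correction and without any single library.

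None of the 8 AhR targets was called in CSC against BaP by limma-voom, with a median difference of 0.14, and 1 was called higher after GC correction. CYP1A1 had 240, 263 and 320 CPM with BaP, within the range of the CSC samples, and the difference was 0.34 (95% interval 0.08 to 0.60, adjusted p = 0.16). CYP1B1 had 1018, 929 and 829 CPM with BaP and differed by -0.01 (95% interval -0.15 to 0.13). Of 44 NRF2 targets 4 were higher with CSC, and 5 after correction, among them FTL and FTH1, each by 0.51, with FTL at 477, 466 and 596 CPM with BaP. Of 28 early and feedback genes 10 were higher, and 6 after correction, with an uncorrected median of 0.38. FOSL1 was 1.13 ± 0.22 higher and DUSP6 1.21 ± 0.21 higher, with DUSP6 at 23.6, 28.4 and 24.8 CPM with BaP, while EGR1 differed by 0.07 (95% interval -0.11 to 0.25).

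Of 37 mitotic genes 9 were lower with CSC than with BaP, and 3 after correction. CENPF was 0.39 lower on the log2 scale, a difference of -0.39 ± 0.08, and lost its call without BaP replicate 2 (adjusted p = 0.093) or CSC replicate 1 (adjusted p = 0.051). VTRNA1-1, a vault RNA, was 1.65 ± 0.46 higher and lost its call without BaP replicate 1 (adjusted p = 0.26), BaP replicate 2 (adjusted p = 0.11), CSC replicate 2 (adjusted p = 0.079) or CSC replicate 3 (adjusted p = 0.095).

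The 5 genes lower than with BaP by most, under the same filters, were NMRK1, IFIT2, IFIT3, DZIP3 and SERPINB13. Their differences were -1.16 ± 0.30, -1.11 ± 0.31, -1.11 ± 0.32, -1.05 ± 0.24 and -0.85 ± 0.18. After GC correction only DZIP3 of these 5 was called. DZIP3 lost its call without CSC replicate 2 (adjusted p = 0.066). NMRK1, a nicotinamide riboside kinase, lost it without BaP replicates 1 or 2 (adjusted p = 0.060 and 0.061) or CSC replicates 2 or 3 (adjusted p = 0.10 and 0.087). IFIT2 lost it without BaP replicates 1 or 2 (adjusted p = 0.13 and 0.16) or any of CSC replicates 1 to 3 (adjusted p = 0.081, 0.050 and 0.17). IFIT3 lost it without any single library of the 6, with an adjusted p between 0.062 without BaP replicate 3 and 0.23 without CSC replicate 3.

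Against NNK, 268 of 14097 genes (1.9%) were called, 142 higher (1.01%) and 126 lower (0.894%) with CSC. After GC correction 255 of 13636 (1.87%) were called, 126 higher (0.924%) and 129 lower (0.946%). Of 8 AhR targets 6 were higher with CSC, with a median of 1.03, also after correction. CYP1A1 had 38.4, 32.9 and 45.4 CPM with NNK, below every CSC sample and above every DMSO sample, and was 3.12 ± 0.22 higher with CSC (adjusted p = 3.1e-24). CYP1B1 had 290, 268 and 340 CPM with NNK and was 1.66 ± 0.09 higher, TIPARP was 0.95 ± 0.11 higher and NQO1 1.11 ± 0.11 higher. AHRR was 1.96 ± 0.54 higher but lost its call without CSC replicate 1 (adjusted p = 0.053) or NNK replicates 1, 2 or 3 (adjusted p = 0.36, 0.077 and 0.097). ALDH3A1 was 0.96 ± 0.23 higher and lost its call without NNK replicate 1 (adjusted p = 0.10).

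Of 44 NRF2 targets 14 were higher with CSC than with NNK and none lower by limma-voom, before and after correction, with a median of 0.49. FTL was 1.14 ± 0.09 higher, with 349, 326 and 272 CPM with NNK, and SLC7A11 0.96 ± 0.13 higher. The early genes split. Of 28, 7 were higher and 1 lower in both fits, DUSP6 being 1.63 ± 0.28 higher and EGR1 lower at -0.39 ± 0.08, with 525, 627 and 685 CPM with NNK. The EGR1 call was lost without NNK replicate 3 (adjusted p = 0.079). FOSL1 was 0.99 ± 0.25 higher and lost its call without CSC replicate 2 (adjusted p = 0.066) or NNK replicate 1 (adjusted p = 0.34).

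Cholesterol synthesis separated CSC from NNK. Of 24 genes 15 were lower with CSC and none higher by limma-voom, with a median of -0.51, and the same counts were found after GC correction. HMGCS1, which makes the precursor HMG-CoA, had 186, 230 and 230 CPM with CSC, 384, 438 and 499 CPM with NNK and 273, 333 and 293 CPM with DMSO, a CSC to NNK difference of -1.03 ± 0.10. The NNK samples were the highest and the CSC samples the lowest. MVD, the mevalonate decarboxylase, and LSS, the lanosterol synthase, differed by -1.09 ± 0.13 and -0.94 ± 0.11. Of 24 genes 1 was higher and 1 lower in CSC against BaP. SREBF1 was 0.98 ± 0.12 higher with CSC than with NNK, FASN was not called (-0.15, 95% interval -0.25 to -0.05), and KRT5 was lower at -0.45 ± 0.04.

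The largest differences from NNK were ranked under the same filters. The 5 genes higher than with NNK by most were ABCA1 at 3.43 ± 0.36, SNORA51, a small nucleolar RNA, at 3.15 ± 0.72, CYP1A1, SERPINB2 at 2.65 ± 0.55 and EID3 at 2.27 ± 0.59. SNORA51 lost its call without NNK replicate 1 (adjusted p = 0.11), and EID3 without NNK replicates 1, 2 or 3 (adjusted p = 0.19, 0.11 and 0.070). The 5 lower by most were RGS2, a regulator of G protein signalling, at -1.52 ± 0.31, TECPR1 at -1.25 ± 0.27, SYNM at -1.17 ± 0.29, LYNX1 at -1.15 ± 0.33 and MED18, a Mediator subunit, at -1.15 ± 0.21. SYNM lost its call without CSC replicate 2 (adjusted p = 0.22) or NNK replicate 1 (adjusted p = 0.19). LYNX1 lost it without CSC replicates 1, 2 or 3 (adjusted p = 0.054, 0.14 and 0.13) or NNK replicates 1 or 3 (adjusted p = 0.078 and 0.21).

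**Figure D5:**
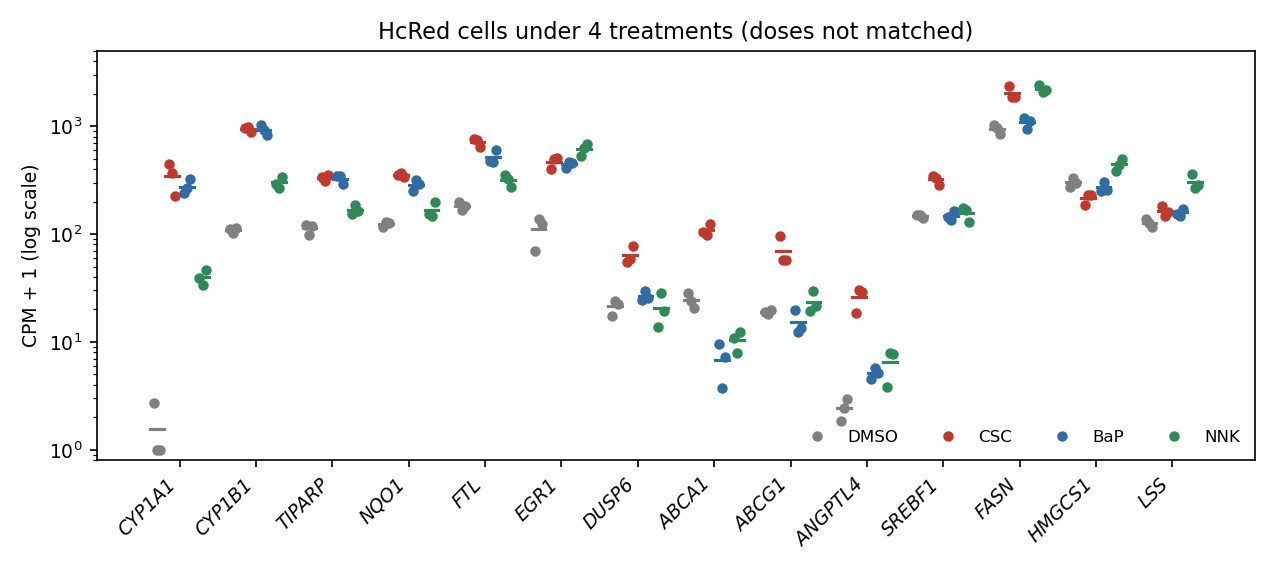
Levels of selected genes in HcRed cells under DMSO, CSC, BaP and NNK. Points are CPM + 1 on a log scale, 3 samples per treatment, and short lines are group means. ABCA1 lies between 97.9 and 122 CPM with CSC and between 2.70 and 8.58 CPM with BaP, while CYP1A1 with BaP lies within the range of the CSC samples.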

How the data were processed

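Counts were deposited for 95 samples, and per the labels the authors trimmed reads with cutadapt 1.12, checked them with FastQC 0.11.5, aligned them to hg19 with STAR 2.5.2b and counted reads per gene with featureCounts (Subread), giving raw counts without normalization. Groups were taken from the sample titles. The raw counts of each comparison (genes with a mean count above 1) were scaled by TMM and tested with limma-voom (R 4.3.3, limma 3.58.1, edgeR 4.0.16) and p-values adjusted by Benjamini-Hochberg were called under 0.05. The response of HcRed against other lines was an interaction term. GC content and exon length came from GENCODE release 44 lifted to GRCh37, matched to 25152 listed genes by symbol or older symbol, and were removed from each sample's log ratios by loess (span 0.3). The alternatives tried were DESeq2 1.42.0, the quasi-likelihood test of edgeR, other scalings and filters, a replicate block, and leaving out each sample. Named genes were CYP1A1, NQO1 and IFIT1, the 15 largest rises and falls, the 5 largest in the other comparisons, and list members, each described list giving its member of smallest p and its most abundant, except that some genes this rule names are not reported here. Members and lists were chosen with earlier results of these data known, so the counts of a list are descriptive. The scripts were tested on simulated data. Library totals of 432015 to 1494564 counts in HcRed cells limit what low genes can show, and intervals of counts cover counting error only. The CSC and DMSO libraries of the other lines held 485031 to 2116383 counts.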

Additional observations from a re-analysis of the deposited data

Results flagged for a closer look

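The CSC response differed between HcRed cells and other lines, by an interaction term in limma-voom, for 5 genes. SLC7A11 responded more than in GFP cells by 0.84 on the log2 scale. Against the mean of the other 7 lines the difference in response was 0.44 for COL7A1, 0.39 for FAT2, 0.38 for ITPR3 and 0.14 for AHNAK, and none of these 4 was called against GFP cells alone. Each of the 5 calls was lost without at least 1 single library of HcRed cells.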

How the results depend on the processing

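In CSC against DMSO the 3426 calls became 1528 with DESeq2, 868 after GC and length correction, 1163 with a replicate block and that correction, and 910 with the correction at a mean count of at least 10, and ranged from 2148 to 3280 when each sample was left out. The 1 call against GFP cells became 0 with all genes with a read, 0 with the 10000 most variable genes, 3 after GC correction, 2 with the replicate block and correction, and 0 to 4 with a sample left out. The 4 calls against the other 7 lines became 0 with DESeq2, 2 with all genes with a read, 0 with the most variable genes, 0 after GC correction, with or without the block, 0 to 11 with a sample left out, and 2, 8, 16 and 15 without the CDKN2A, FGFR1, GFP and PIK3CA lines. The 396 calls against BaP became 90 with DESeq2, 610 with the replicate block and 165 after GC correction, and ranged from 98 to 648 with a sample left out. The 268 calls against NNK became 95 with DESeq2 and 435 with the block, and ranged from 166 to 304. The cause was not tested. CSC and DMSO samples of HcRed cells with the same replicate number had correlations of 0.061, 0.0039 and 0.097. Those with different numbers had -0.12 to 0.057. In GFP cells these were 0.054, 0.060 and 0.089 for the same number and -0.055 to -0.0077 for different ones. The main fit did not take samples as pairs, and whether replicate numbers mark a shared structure was not tested. The block gave 3902 calls in CSC against DMSO of HcRed cells. The corrected fit at a mean count of at least 10, and the uncorrected fit on genes of known GC content (3428 calls), were chosen after seeing the data. The sign of AHR turned from -0.01 to 0.0057 with all genes with a read, 0.0025 with the block, 0.25 under GC correction, 0.27 with the block and correction (adjusted p = 0.049, a call), 0.24 at a mean count of at least 10, and 0.021, 0.0068 and 0.10 without CSC replicates 2 or 3 or DMSO replicate 3. In the corrected fit, the one with the block and the one at a mean count of at least 10, NFE2L2 turned to 0.083, 0.091 and 0.072, MMP14 to -0.044, -0.049 and -0.071, KRT17 to -0.069, -0.068 and -0.095, MDM2 to 0.23, 0.22 and 0.22, ZNF106 to 0.039, 0.028 and 0.036, and COL7A1 to -0.041, -0.045 and -0.068. With a sample left out, AHR ranged from -0.12 to 0.10 and MDM2 from -0.19 to 0.010. Of 107 named genes, 106 kept direction and call with edgeR and 100 with DESeq2, but 87 after GC correction and 90 with the block and correction. Under GC correction 13 kept direction and lost their call, and 7 turned sign. Of those 7, KRT17, MMP14 and COL7A1 had been called and also lost their call. HcRed libraries of 432015 to 1494564 counts limit low genes.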
